A study of Mus musculus with 8 samples.

Results

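The genes described here encode 43 mitochondrial enzyme subunits that oxidize pyruvate, acetyl-CoA, fatty acids and branched-chain amino acids. They were chosen by name, for their place in these pathways, and all 43 were found among the 21434 genes of the deposited table. They fall into 4 branches: 5 genes of pyruvate entry, 17 of the citrate cycle, 13 of fatty acid oxidation and 8 of branched-chain oxidation. All 43 passed the filter on low counts, together with the other genes that made up the 12820 genes tested.

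The libraries were made from poly(A)-selected RNA of whole pancreas of untreated mice at 18 weeks of age. Bach2WT mice were wild type animals of the C57BL/6N strain. Bach2KO mice were homozygous for Bach2tm1b(EUCOMM)Wtsi, a constitutive deletion of the gene for the transcription factor Bach2 in the whole body, so that no cell type was targeted in particular. There were 4 mice per genotype, with females as replicates 1 and 2 and males as replicates 3 and 4. The mice came from colonies kept at a pair of sites, and the labels do not say which mouse came from which.

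Pyruvate from glycolysis enters the mitochondrion and is turned into acetyl-CoA by the pyruvate dehydrogenase complex, or into oxaloacetate by pyruvate carboxylase. The citrate cycle oxidizes acetyl-CoA to carbon dioxide and hands the electrons to the respiratory chain, in part through succinate dehydrogenase, which belongs to both. Beta-oxidation shortens fatty acids by repeated rounds of dehydrogenation, hydration, dehydrogenation and thiolysis, and each round releases acetyl-CoA. The ketoacids of leucine, isoleucine and valine are oxidized by a related set of enzymes that begins with the branched-chain ketoacid dehydrogenase complex. Acinar cells, which make up most of the pancreas, use the resulting ATP to make and secrete digestive enzymes.

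Total counts ranged from 72299745 to 172029360 per library. The 15 acinar digestive enzyme genes used as markers of the tissue took 70.7% to 76.4% of them, and the 43 oxidation genes took 0.0299% to 0.0439%. The lowest count of any of the 43 genes in a library was 47, for Pdhx. The library of Bach2KO replicate 3, a male, stood apart from the others on the first principal component of all genes, at 102, where the other 7 libraries lay between -34.8 and 7.22. It also gave the lowest level of 15 of the 43 genes, 6 of them in fatty acid oxidation, and the highest level of 0. Bach2 itself was close to the limit of detection, at 0.0444, 0.0305, 0.216 and 0.0864 CPM (counts scaled to library size) in Bach2WT and 0.0989, 0.0362, 0.159 and 0.0726 CPM in Bach2KO, and did not enter the test. These gene-level counts include any reads from outside the deleted part and so do not check the genotype labels.

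Levels of different genes were compared as FPKM, the deposited values per kilobase of gene. The highest was that of Sdhb, the iron-sulfur subunit of succinate dehydrogenase, at 17.8 ± 1.94 FPKM in Bach2WT (SD, n = 4). It was followed by Idh2, the NADP-dependent isocitrate dehydrogenase, at 10.4 ± 0.898 FPKM. The ranges of these 2 genes over the Bach2WT libraries overlapped neither each other nor the range of the next gene, the malate dehydrogenase gene Mdh2. From there down, every gene's range overlapped that of the next in order. The lowest was Hadhb, the beta subunit of the mitochondrial trifunctional protein, at 0.293 ± 0.0486 FPKM. Even so, all 43 genes were in the upper part of the deposited FPKM values, from the 72.5th to the 98.3rd percentile of all genes.

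**Figure D1:**
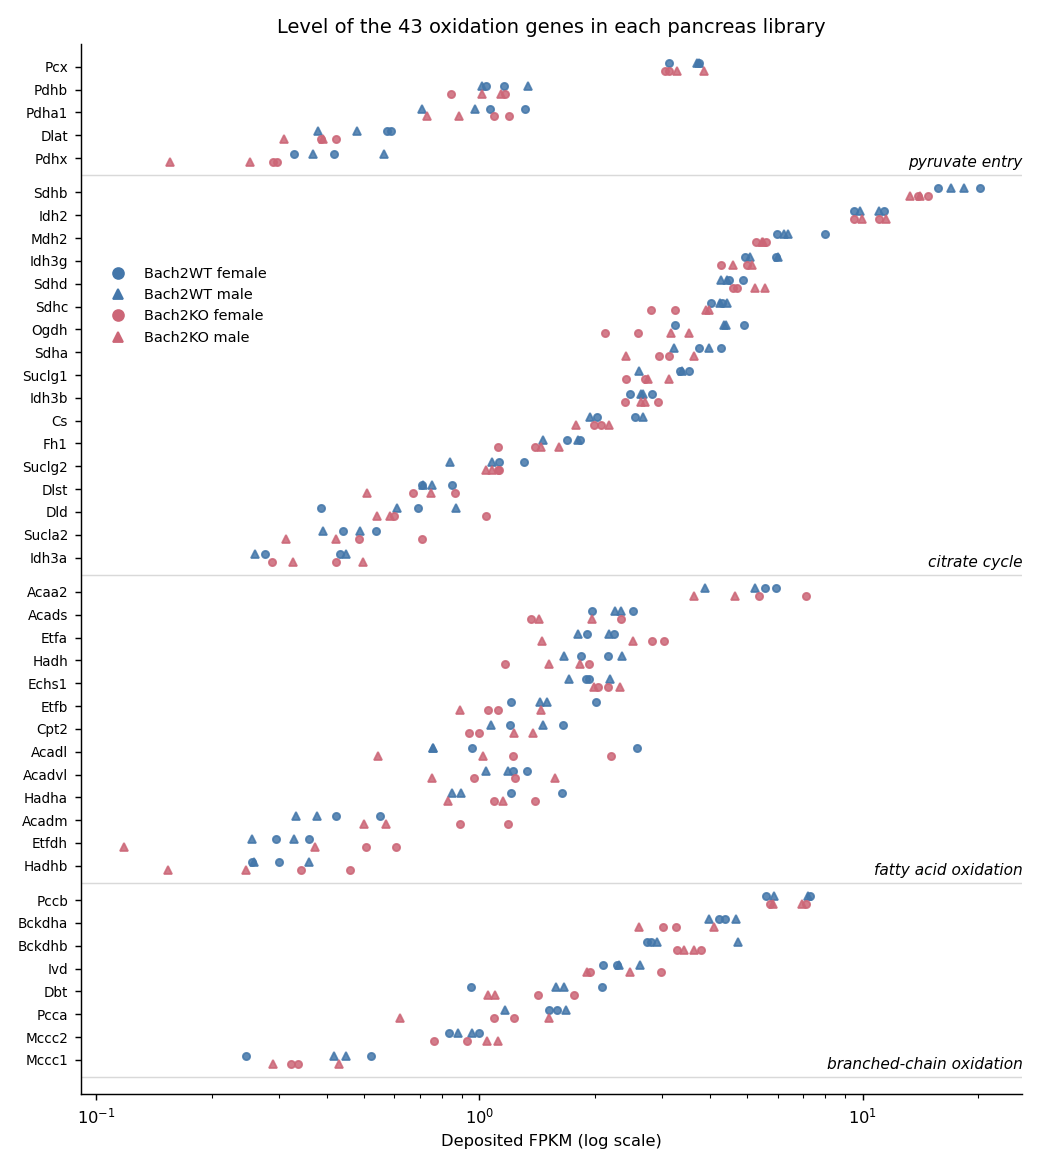
Deposited FPKM (log axis) of each of the 43 genes in the 8 libraries, grouped by branch and ordered by the Bach2WT mean. Points are single mice, circles females and triangles males, with Bach2WT in blue and Bach2KO in red. Sdhb and Idh2 stand above the other genes, and Etfdh and Hadhb are the lowest, with the Bach2KO replicate 3 triangle far to the left for both.

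The range of levels was widest in the citrate cycle. In pyruvate entry, Bach2WT means ran from 0.419 FPKM for Pdhx, which ties the E3 component into the pyruvate dehydrogenase complex, to 3.58 FPKM for Pcx, pyruvate carboxylase. In the citrate cycle they ran from 0.354 FPKM for Idh3a, the catalytic subunit of the NAD-dependent isocitrate dehydrogenase, to the value of Sdhb. In fatty acid oxidation they ran from the value of Hadhb to 5.16 FPKM for Acaa2, the mitochondrial 3-ketoacyl-CoA thiolase. In branched-chain oxidation they ran from 0.408 FPKM for Mccc1 to 6.49 FPKM for Pccb, the beta subunit of propionyl-CoA carboxylase. Replicates agreed best in the citrate cycle, where the median coefficient of variation was 11.9% in Bach2WT and 9.42% in Bach2KO. Fatty acid oxidation was more variable, with medians of 16.4% in Bach2WT and 29.7% in Bach2KO.

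The first question was whether the loss of Bach2 was accompanied by another level of these genes. No member of any branch differed between Bach2KO and Bach2WT at an adjusted p under 0.05 (edgeR, quasi-likelihood test), and the lowest adjusted p among the 43 was 0.531. Of all 12820 genes tested, 1 passed, or 0.00780%. At an unadjusted p under 0.05, 4 members were lower in Bach2KO, namely Pdhx, Ogdh, Sdhb and Bckdha, against 3.56% of all genes. A single member, Acadm, was higher, against 3.90% of all genes. DESeq2 gave the same counts at an unadjusted p, 4 lower and 1 higher, and 0 at an adjusted p, which 58 of all genes passed. In bulk tissue, fewer cells of a type and less RNA per cell cannot be told apart.

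Counted by direction alone, 25 of the 43 genes had a log2 fold change below 0, or 58.1%, against 45.3% of all genes tested. The median log2 fold change was -0.08 for the 43 genes and 0.05 for all genes. By branch the medians were -0.10 for pyruvate entry, -0.17 for the citrate cycle, 0.02 for fatty acid oxidation and -0.10 for branched-chain oxidation. Single libraries moved them. The median of the 43 genes ran from -0.16 without Bach2WT replicate 4 to -0.05 without Bach2KO replicate 3, and was -0.15 without Bach2KO replicate 1 or 2. That of pyruvate entry ran from -0.17 without Bach2WT replicate 4 to -0.06 without Bach2WT replicate 3, and was -0.16 without Bach2KO replicate 2. The citrate cycle ran from -0.22 to -0.09 without the same 2 Bach2WT libraries, and its median was not the lowest of the branches without Bach2KO replicate 1, Bach2KO replicate 2 or Bach2WT replicate 2. Branched-chain oxidation ran from -0.16 without Bach2KO replicate 1 to -0.04 without Bach2WT replicate 1, and was between -0.07 and -0.05 without Bach2KO replicate 3 or 4 or Bach2WT replicate 2 or 3. Fatty acid oxidation was below 0 without Bach2KO replicate 1, Bach2WT replicate 3 or Bach2WT replicate 4, at -0.15, -0.05 and -0.11. All 5 pyruvate genes were below 0, as were 10 of 17 citrate cycle genes, 6 of 13 fatty acid genes and 4 of 8 branched-chain genes.

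These directions depended on the scaling between libraries, which was TMM, a scaling to the bulk of genes. With library sizes alone, the median of all genes moved to 0.35 and that of the 43 genes to 0.23. Relative to all genes, the 43 genes were at -0.13 with TMM and at -0.11 with library sizes alone, and the citrate cycle at -0.22 and -0.20. With library sizes alone, 0 members were lower and 6 higher at an unadjusted p under 0.05, against 47 and 1595 of all 12820 genes. All values below are on the TMM scale unless another is named.

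**Figure D2:**
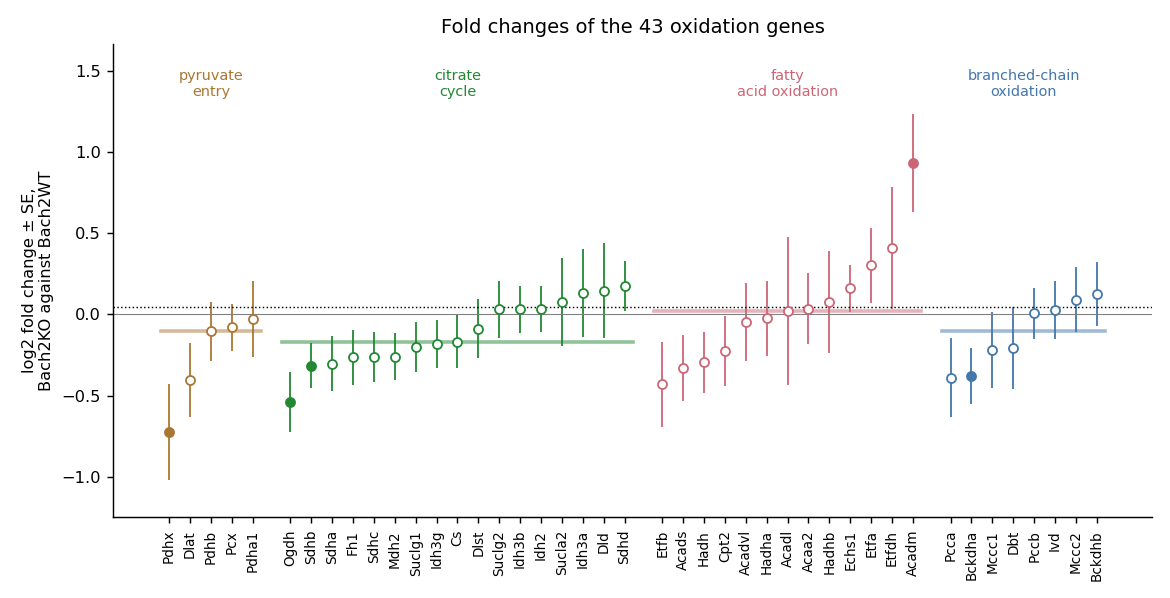
Log2 fold change of each gene in Bach2KO against Bach2WT (points) with its standard error (bars), by branch. Filled points have an unadjusted p under 0.05, thick lines are branch medians, and the dotted line is the median of all 12820 genes tested, at 0.05. The citrate cycle line lies lowest, at -0.17, and Acadm lies above all others.

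Of the 43 genes, 4 were lower in every Bach2KO library than in any Bach2WT library, namely Pdhx, Sdhb, Sdhc and Mdh2, against 1.92% of all genes. The last 3 of these act in the stretch of the citrate cycle from succinate to oxaloacetate. None was higher in every Bach2KO library, against 2.57% of all genes.

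Sdhb (chr4:140688514-140706504, plus strand, in the mm39 build of the table) carries the iron-sulfur clusters that pass electrons from succinate to ubiquinone. It was at 36.0, 46.0, 41.5 and 38.3 CPM in Bach2WT replicates 1 to 4 and at 32.9, 34.4, 30.3 and 32.3 CPM in Bach2KO replicates 1 to 4. The groups did not overlap, and the Bach2KO values lay close together. Its log2 fold change was -0.31 ± 0.14 (SE), with an unadjusted p of 0.0428 and an adjusted p of 0.663. Sdhb kept an unadjusted p under 0.05 in 8 of 18 alternative fits, and its unadjusted p was 0.123 without Bach2WT replicate 2.

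Sdhc (chr1:170954734-170978172, minus strand), a membrane anchor of the same complex, was at 13.4, 14.2, 13.9 and 14.5 CPM in Bach2WT and at 9.62, 10.9, 13.1 and 13.0 CPM in Bach2KO. The 2 Bach2KO females were lowest and the 2 Bach2KO males lay just under the lowest Bach2WT library. The log2 fold change was -0.26 ± 0.15, with an unadjusted p of 0.110.

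Mdh2 (chr5:135807334-135819252, plus strand), which makes oxaloacetate from malate, was at 21.8, 28.9, 22.4 and 22.9 CPM in Bach2WT and at 21.0, 19.4, 19.7 and 20.0 CPM in Bach2KO. The gap between the groups was narrow, and Bach2WT replicate 2 lay far above the rest. Its log2 fold change was -0.26 ± 0.15, with an unadjusted p of 0.0984. With library sizes alone, Sdhc and Mdh2 were slightly above 0, at 0.04 and 0.05, and Sdhb was at -0.01.

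The other subunits of succinate dehydrogenase did not share one direction. Sdha, the flavoprotein, had a log2 fold change of -0.30 ± 0.17, while Sdhd, the second membrane anchor, was at 0.18 ± 0.15. The 4 subunits had a median of -0.28, and the 13 other citrate cycle genes one of -0.09.

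Ogdh (chr11:6241633-6306642, plus strand) encodes the E1 component of the 2-oxoglutarate dehydrogenase complex, which turns 2-oxoglutarate into succinyl-CoA. It had the smallest p of the citrate cycle. Its levels were 18.1, 27.2, 23.9 and 24.1 CPM in Bach2WT and 12.3, 14.6, 17.6 and 19.7 CPM in Bach2KO. All Bach2KO libraries but replicate 4 lay below the lowest Bach2WT library, the female replicate 1. The log2 fold change was -0.54 ± 0.18, a level of 0.687 of that in Bach2WT, with an unadjusted p of 0.0116 and an adjusted p of 0.557. Ogdh kept an unadjusted p under 0.05 in 17 of 18 alternative fits, the exception being the edgeR fit with library sizes alone, where it was 0.210.

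The E2 and E3 components of the same complex gave -0.09 ± 0.18 for Dlst and 0.15 ± 0.29 for Dld. Idh3a, the lowest citrate cycle gene, was at 1.43, 2.23, 2.29 and 1.32 CPM in Bach2WT and at 1.54, 2.21, 1.68 and 2.58 CPM in Bach2KO. These ranges overlapped widely, and its log2 fold change was 0.13 ± 0.27.

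Summed over the 17 genes, the citrate cycle reached 65.1, 77.3, 72.7 and 66.1 FPKM in Bach2WT and 59.8, 60.2, 60.2 and 65.0 FPKM in Bach2KO. The groups just failed to overlap on this scale, and Sdhb alone made up more than any other gene of the sum. As a share of all counts, the same genes took 0.0175% to 0.0234% in Bach2WT and 0.0200% to 0.0245% in Bach2KO, which overlapped. The 15 acinar digestive enzyme genes moved with genotype on the TMM scale as well. Their summed level was 688751 to 915161 CPM in Bach2WT and 601294 to 684099 CPM in Bach2KO. A log2 fold change below 0 was found for 14 of the 15. Of all counts, however, they took 70.8% to 76.4% in Bach2WT and 70.7% to 73.9% in Bach2KO, which overlapped. The part of the acinar list in the citrate cycle values was not tested.

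**Figure D3:**
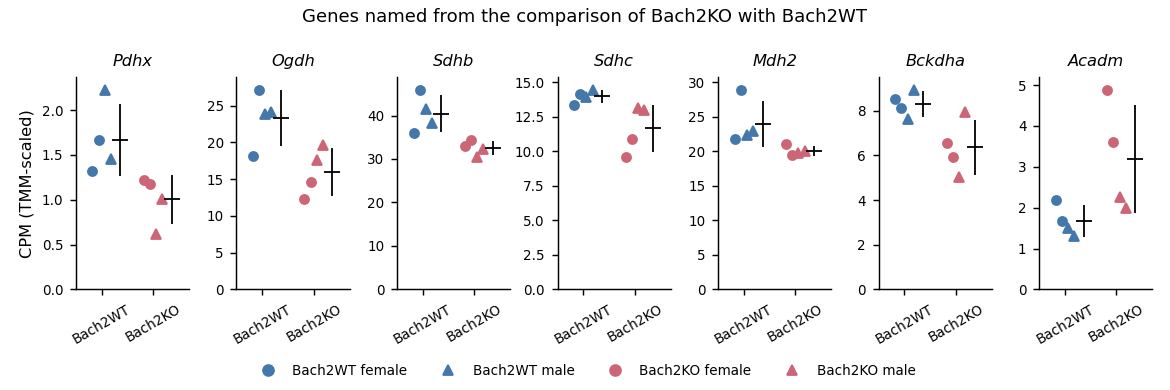
CPM on the TMM scale (linear axes from 0) of the 7 genes that either did not overlap between genotypes or had an unadjusted p under 0.05. Points are single mice and black bars mean ± SD of 4. Pdhx, Sdhb, Sdhc and Mdh2 do not overlap, and Acadm is the only gene that is higher in Bach2KO.

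Among the pyruvate genes, Pdhx (chr2:102851420-102903858, minus strand) differed most in relative terms. It was at 1.32, 1.67, 2.23 and 1.45 CPM in Bach2WT and at 1.22, 1.17, 0.621 and 1.01 CPM in Bach2KO. The groups did not overlap, and Bach2KO replicate 3 was lowest. The log2 fold change was -0.73 ± 0.30, with an unadjusted p of 0.0289 and an adjusted p of 0.636. Without Bach2KO replicate 3 it was -0.58, with an unadjusted p of 0.0564.

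Dlat, the E2 acetyltransferase of the pyruvate dehydrogenase complex, was at 2.94, 2.85, 2.36 and 1.87 CPM in Bach2WT and at 1.99, 2.13, 1.94 and 1.54 CPM in Bach2KO. The lowest Bach2WT library lay within the Bach2KO range. Its log2 fold change was -0.40 ± 0.23, with an unadjusted p of 0.101. Pcx, the most highly expressed gene of the branch, was at 15.2, 18.1, 18.0 and 17.7 CPM in Bach2WT and at 15.7, 15.0, 15.9 and 18.8 CPM in Bach2KO, with a log2 fold change of -0.08 ± 0.15. The E1 subunits were at -0.03 ± 0.23 for Pdha1 and -0.10 ± 0.18 for Pdhb.

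Fatty acid oxidation was the branch in which the median coefficient of variation between Bach2KO mice was highest. Acadm (chr3:153627994-153650269, minus strand), the medium-chain acyl-CoA dehydrogenase, had the smallest p of all 43 genes. It was at 2.20, 1.68, 1.49 and 1.31 CPM in Bach2WT and at 4.89, 3.60, 2.27 and 2.00 CPM in Bach2KO. Females were higher than males in both genotypes, and within each sex both Bach2KO libraries lay above both Bach2WT libraries. Over all mice the groups overlapped by 1 library each. Its log2 fold change was 0.93 ± 0.30, or 1.91-fold, with an unadjusted p of 0.00820 and an adjusted p of 0.531. The unadjusted p stayed under 0.05 in 18 of 18 alternative fits, and the log2 fold change was lowest, at 0.65, without Bach2KO replicate 1.

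The acyl-CoA dehydrogenases for the other chain lengths lay near or below 0. Acadvl, for very long chains, was at -0.05 ± 0.24, Acadl, for long chains, at 0.02 ± 0.45, and Acads, for short chains, at -0.33 ± 0.20. The electron carriers that receive electrons from all of them were also split. Etfa and Etfdh were at 0.30 ± 0.23 and 0.41 ± 0.38, and Etfb, the partner subunit of Etfa, at -0.43 ± 0.26.

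Etfb was at 1.44, 2.38, 1.76 and 1.68 CPM in Bach2WT and at 1.37, 1.27, 1.72 and 1.06 CPM in Bach2KO. Acaa2, the most highly expressed gene of the branch, was at 9.24, 8.58, 8.03 and 5.92 CPM in Bach2WT and at 11.4, 8.38, 5.59 and 7.22 CPM in Bach2KO. Neither gene separated the genotypes. Hadhb was at 2.02, 1.71, 1.72 and 2.39 CPM in Bach2WT and at 3.20, 2.33, 1.03 and 1.66 CPM in Bach2KO, which spanned a wider range than Bach2WT on both sides. Its counts are uncertain, since the pseudogene Hadhb-ps, with 1129 counts over all libraries against 1928 for Hadhb, may share reads with it.

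Without Bach2KO replicate 3, the median of the branch was 0.16. Among all 43 genes, 3 were higher and 2 lower at an unadjusted p under 0.05, against 472 and 632 of 13701 genes tested. No member passed the adjusted threshold in that fit.

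In branched-chain oxidation, Bckdha (chr7:25329371-25358406, minus strand), the E1 alpha subunit of the ketoacid dehydrogenase that commits the carbon skeletons to oxidation, had the smallest p. It was at 8.51, 8.13, 7.62 and 8.94 CPM in Bach2WT and at 6.54, 5.93, 5.03 and 7.94 CPM in Bach2KO. Only Bach2KO replicate 4 reached the Bach2WT range. The log2 fold change was -0.38 ± 0.17, with an unadjusted p of 0.0446 and an adjusted p of 0.663. It kept an unadjusted p under 0.05 in 6 of 18 alternative fits.

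Pcca, the biotin-carrying subunit of propionyl-CoA carboxylase, was at 8.48, 8.02, 8.86 and 6.13 CPM in Bach2WT and at 6.01, 6.61, 3.28 and 8.12 CPM in Bach2KO. Its partner Pccb was at 15.8, 20.5, 20.2 and 16.4 CPM in Bach2WT and at 16.7, 20.4, 16.4 and 19.7 CPM in Bach2KO. Pcca was low in Bach2KO replicate 3 in particular, while Pccb had nearly the same mean in both genotypes. Their log2 fold changes were -0.39 ± 0.24 and 0.01 ± 0.16. Reads of Pcca may be shared with Ggact, which overlaps it and had 1544 counts over all libraries against 6847 for Pcca. Mccc1, a subunit of the leucine-specific methylcrotonyl-CoA carboxylase, was at 2.75, 5.80, 4.97 and 4.61 CPM in Bach2WT and at 3.73, 3.80, 3.21 and 4.82 CPM in Bach2KO. All of these ranges overlapped.

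Since each genotype held both sexes, the same genes were compared between males and females with genotype as a covariate. Fatty acid oxidation was the branch that differed most by sex. Its mean log2 CPM was 2.14 and 2.15 in the Bach2WT females, 2.30 and 2.20 in the Bach2KO females, 1.95 and 1.84 in the Bach2WT males and 1.60 and 2.00 in the Bach2KO males. Every male lay below every female, and the means were 2.20 ± 0.0731 in females and 1.85 ± 0.181 in males (SD, n = 4). The summed FPKM of the branch did not overlap either, at 22.7 ± 0.652 in females and 18.6 ± 2.13 in males. As a share of all counts, which is not scaled by TMM, the sexes overlapped. In the other branches the sexes overlapped on all of these scales.

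**Figure D4:**
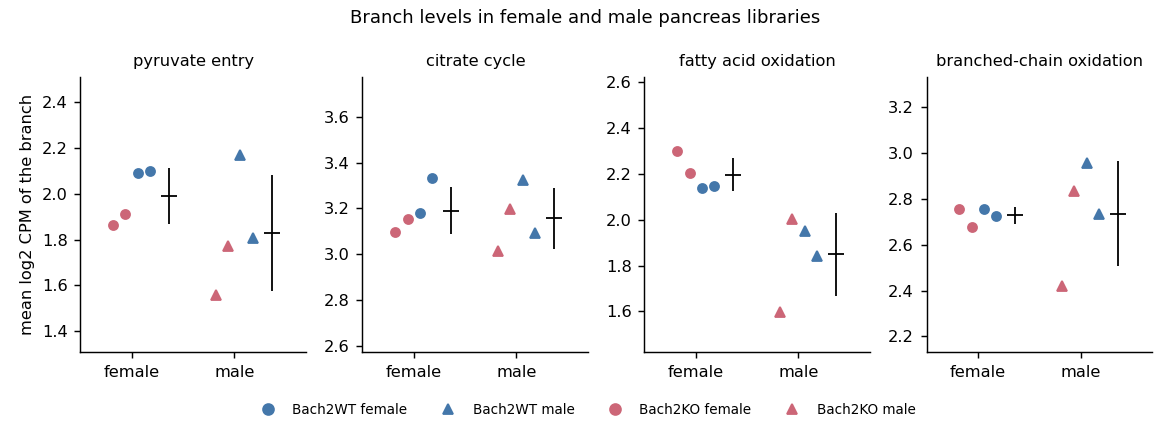
Mean log2 CPM of each branch in each mouse, by sex, with black bars for mean ± SD of 4 mice. The axes of the 4 panels have the same height and do not start at 0. The sexes separate in fatty acid oxidation, with every male at 2.00 or below and every female at 2.14 or above, and overlap in the other branches.

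No single gene passed the adjusted threshold, and the lowest adjusted p was 0.890 in edgeR and 0.250 in DESeq2. Of all genes tested, 0.0312% passed in edgeR, and 12 of 12820 passed in DESeq2. At an unadjusted p under 0.05, 5 members were lower in males, 4 of them in fatty acid oxidation, and none was higher. Among all genes tested, 3.36% were lower in males at that p, and 247 of 12820 were higher. The 4 fatty acid genes act at steps from dehydrogenation to thiolysis, but not all enzymes of these steps were lower in males. The log2 difference was -0.08 for Acadvl, -0.06 for Acads, 0.01 for Echs1 and 0.04 for Hadh, and -0.45 for Hadhb. Of the 13 genes of the branch, 10 were below 0.

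Acadl was at 5.28, 1.95, 4.65 and 2.54 CPM in the 4 females and at 1.53, 1.53, 1.11 and 2.09 CPM in the 4 males, each time with Bach2WT first. Females replicate 1 of both genotypes stood far above all others. The log2 difference, male against female, was -1.20 ± 0.33, with an unadjusted p of 0.00355. Acadm, whose values are given above, differed by -0.73 ± 0.23, with an unadjusted p of 0.00736.

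Hadha, the alpha subunit of the trifunctional protein, was at 10.8, 14.6, 10.0 and 12.6 CPM in females and at 7.89, 7.47, 10.2 and 7.38 CPM in males. Bach2KO replicate 3 was the only male within the female range. The log2 difference was -0.54 ± 0.18, with an unadjusted p of 0.0108. Acaa2 was lower in every male than in any female, with a log2 difference of -0.49 ± 0.18 and an unadjusted p of 0.0189.

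The fifth gene was Pdha1, the X-linked E1 alpha subunit of pyruvate dehydrogenase. It was at 5.03, 4.04, 4.71 and 4.20 CPM in females and at 3.66, 2.66, 2.77 and 3.39 CPM in males, with a log2 difference of -0.52 ± 0.19 and an unadjusted p of 0.0169. In all, 3 members were lower in every male than in any female, namely Pdha1, Acaa2 and Suclg2, against 1.97% of all genes.

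Leaving out 1 library at a time gave 3 to 6 members lower in males at an unadjusted p under 0.05. Over all genes, the number ran from 267 of 12530 without Bach2KO replicate 1 to 644 of 12785 without Bach2WT replicate 2. The count of members was 3 without Bach2KO replicate 3, the male library that stood apart, and 3 without Bach2WT replicate 4. In both fits these were Acadl, Acadm and Hadha. Markers of fat cells moved with the sexes in part. Their summed level over 8 genes was 22.3 and 15.1 CPM in the Bach2WT females and 13.3 and 3.89 CPM in the Bach2KO females, and 1.40 to 4.35 CPM in the 4 males. Acadl was highest in Bach2WT replicate 1 and Bach2KO replicate 1, 2 of the 3 libraries with the most of these markers. Adipoq, Plin1, Cidec, Lep, Retn and Cfd were each at 0 in at least 1 library. The brown fat genes Cidea, Cox7a1 and Cox8b summed to 0.0666 to 0.297 CPM in Bach2WT and 0.0104 to 0.121 CPM in Bach2KO. The brown fat genes Ucp1, Elovl3 and Otop1 were not analysed here. The part of fat cells in the difference between the sexes was not tested.

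The effect of genotype was then compared between the sexes. In edgeR no member passed the adjusted threshold for this interaction, as was the case for all genes (0.00%). At an unadjusted p under 0.05 there was 1 member, Hadhb, against 6.14% of all genes. DESeq2 also gave 1 member at an unadjusted p and 0 at an adjusted p. There, 15 of all 12820 genes passed the adjusted threshold. Hadhb was higher in both Bach2KO females than in the Bach2WT females and lower in both Bach2KO males than in the Bach2WT males, with an interaction of -1.17 on the log2 scale and an unadjusted p of 0.0435.

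Ratios between partner genes within a library do not depend on the scaling between libraries, so 14 such ratios were compared, as log2 ratios of counts per kilobase. The ratio that varied least was that of Sdhb to Sdha, the catalytic subunits of succinate dehydrogenase. It was 4.69 on average over the 8 libraries, ranged from 3.88 to 5.54, and had a mean of 4.70 in Bach2KO and 4.69 in Bach2WT. The SD of its log2 value was 0.164, smaller than the SD of either gene's log2 level, which was 0.200 for Sdhb and 0.261 for Sdha.

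No ratio differed between the genotypes at an exact p under 0.05 (two-sided exact permutation test, for which 0.0286 is the smallest possible p). The lowest p was that of Acadl to Acadm, at 0.0571, with an adjusted p of 0.400 over the 14 ratios by the Benjamini-Hochberg method. This ratio was 1.49 in Bach2KO and 2.64 in Bach2WT. It was highest in Bach2WT replicate 1, the library in which Acadl was highest, and below 1 in Bach2KO replicate 3 only.

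The next lowest p was that of Dlat to Pdha1 (exact p = 0.0857), at 0.390 in Bach2KO and 0.503 in Bach2WT. Bckdhb to Bckdha, the subunits of the branched-chain E1 component, was 1.10 in Bach2KO and 0.745 in Bach2WT (exact p = 0.114). Pccb to Pcca was 6.02 in Bach2KO and 4.37 in Bach2WT, with the same p. Etfb to Etfa, the subunits of a heterodimer, was 0.469 in Bach2KO and 0.747 in Bach2WT (exact p = 0.143).

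The remaining ratios had an exact p of 0.286 or more. They included Pdhb to Pdha1 (1.08 and 1.14, Bach2KO first), Pcx to Pdha1 (3.46 and 3.60), Suclg2 to Sucla2 (2.37 and 2.33) and Mccc2 to Mccc1 (2.80 and 2.32). The isocitrate dehydrogenases were all far above Idh3a, with Idh3b at 7.11 and 7.72, Idh3g at 12.7 and 15.9 and Idh2 at 27.9 and 30.3 times its level. Idh3b shares its locus with Nop56, so that part of its counts may belong to that gene.

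**Figure D5:**
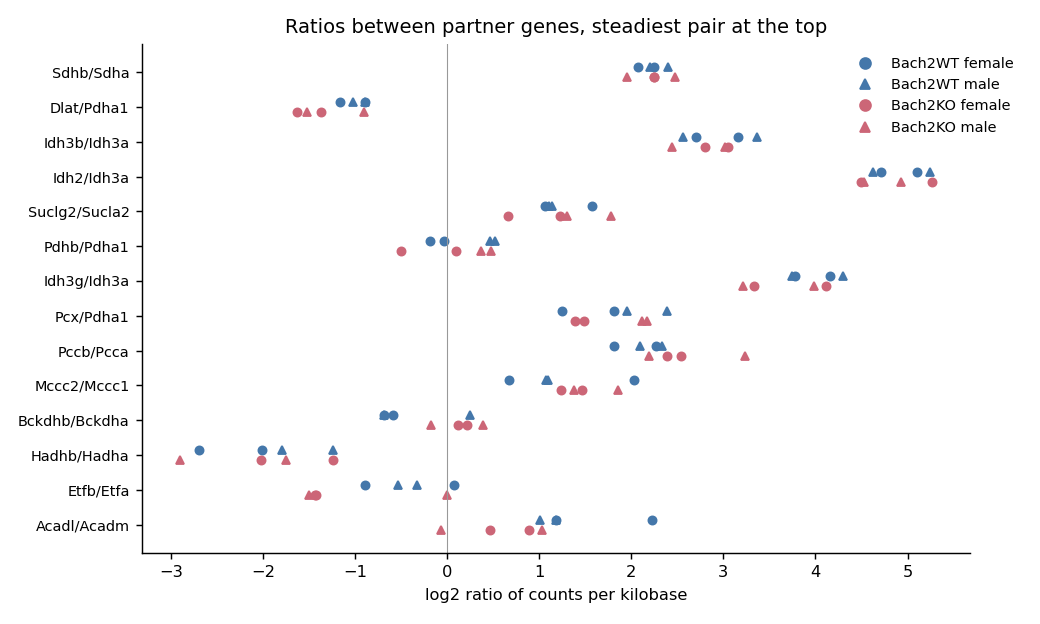
Log2 ratio of counts per kilobase between partner genes, 1 row per pair, ordered from the least variable pair (Sdhb to Sdha) to the most variable (Acadl to Acadm). Points are single mice, and 0 marks equal levels. In no row are all Bach2KO points on one side of all Bach2WT points.

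Hadhb to Hadha, the subunits of the trifunctional protein, was 0.253 in Bach2KO and 0.262 in Bach2WT, and among the most variable of the ratios, from 0.134 to 0.423. The 2 genes lie head to head. In the RefSeq annotation of GRCm38.p6 their start sites are 273 bases apart on chromosome 5, on opposite strands, so that the windows from 250 bases before to 50 bases after each start share 228 bases. The stretch between the starts is shown because it is common to 2 genes whose ratio varied widely between mice. It is chr5:30154980-30155253 on the plus strand, with the first base of Hadha (its complement is transcribed) and the first base of Hadhb in capitals.
Hadha to Hadhb: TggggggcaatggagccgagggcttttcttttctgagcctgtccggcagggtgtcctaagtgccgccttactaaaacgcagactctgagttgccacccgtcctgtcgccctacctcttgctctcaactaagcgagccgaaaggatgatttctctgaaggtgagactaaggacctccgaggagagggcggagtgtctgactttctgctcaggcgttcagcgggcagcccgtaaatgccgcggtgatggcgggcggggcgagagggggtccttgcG

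Of the 43 genes, 39 had at least 1 such window in RefSeq, and 47 windows were searched on both strands for the letters of 4 motifs. NRF1, a factor known for its sites in genes of mitochondrial proteins, was searched as GCATGCGC. It was found in 7 windows of 6 genes, or 14.9% of the 47 windows, against 2.71% of all 32851 windows. The same site of Ogdh was counted in more than 1 of these windows, which overlap. The estrogen-related receptor element, TCAAGGTCA, was found in 1 window (2.13%, against 0.423% of all windows), that of Sdhd. The ETS element bound by GABP, CCGGAAGT, was found in 2 windows (4.26%, against 3.89%), those of Cpt2 and Dlst. GGTCANAGG, part of the element bound by PPAR, was found in 1 window (2.13%, against 1.72%), that of Idh3b. The letters GGTCA are common to this and the estrogen-related receptor element. A match is a run of letters and no evidence of binding.

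The genes with the NRF1 letters were Acadm, Etfa and Etfdh in fatty acid oxidation, Ogdh and Sdhb in the citrate cycle and Pccb in branched-chain oxidation. They are shown because they include the genes with the smallest p of both the citrate cycle, Ogdh, and fatty acid oxidation, Acadm, which lay on opposite sides of 0. Each stretch of 60 bases is given 5′ to 3′ on the strand of its gene (GRCm38.p6), with the motif in capitals.
Acadm (chr3:153944768-153944827, minus strand): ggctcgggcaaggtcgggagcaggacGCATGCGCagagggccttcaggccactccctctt
Etfa (chr9:55512315-55512374, minus strand): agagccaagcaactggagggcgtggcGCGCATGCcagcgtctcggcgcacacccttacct
Etfdh (chr3:79628862-79628921, minus strand): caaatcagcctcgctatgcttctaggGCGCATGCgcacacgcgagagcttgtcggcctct
Ogdh (chr11:6292517-6292576, plus strand): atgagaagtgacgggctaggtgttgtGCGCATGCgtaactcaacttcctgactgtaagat
Pccb (chr9:101034886-101034945, minus strand): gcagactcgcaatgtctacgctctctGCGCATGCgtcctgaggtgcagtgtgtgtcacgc
Sdhb (chr4:140961191-140961250, plus strand): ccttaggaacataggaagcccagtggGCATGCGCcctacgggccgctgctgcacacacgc
The motif began 15 bases before an annotated start of Ogdh and at -36 from a later start. For the others it began 35 bases before Pccb, 54 before Sdhb, 105 before Etfa, 128 before Etfdh and 158 before Acadm. The log2 fold changes of the 6 genes ran from -0.54 for Ogdh to 0.93 for Acadm, with Pccb at 0.01. Nrf1 itself had a log2 fold change of 0.57 ± 0.34, with an unadjusted p of 0.115.

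Other genes of the same pathways were taken from lists of regulators, transporters and neighbouring enzymes. In the edgeR fit with TMM and the filter on low counts, no gene of these lists passed the adjusted threshold. Over all genes tested, 3.90% were higher and 3.56% lower at an unadjusted p under 0.05. Of 12 genes of pyruvate transport and pyruvate dehydrogenase regulation, 1 was higher at an unadjusted p under 0.05 and none lower. This was Pdk4, a kinase that inactivates pyruvate dehydrogenase. It was at 0, 0, 0 and 0.230 CPM in Bach2WT and at 9.34, 0.145, 0.0264 and 0.0829 CPM in Bach2KO, so that its difference rested on Bach2KO replicate 1 (unadjusted p = 0.00748), and without that library it did not enter the test.

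Among genes of ketone body metabolism, Oxct1, which uses ketone bodies as fuel, was at 5.04, 4.25, 3.26 and 3.79 CPM in Bach2WT and at 3.18, 2.75, 2.81 and 2.12 CPM in Bach2KO. Its groups did not overlap, and its log2 fold change was -0.59 ± 0.21 (unadjusted p = 0.0143).

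Of 13 further genes of branched-chain oxidation, 2 were lower and none higher, against 3.56% and 3.90% of all genes. Bckdk, the kinase that inactivates the branched-chain ketoacid dehydrogenase, was at 80.7, 103, 100.2 and 109 CPM in Bach2WT and at 55.8, 63.6, 75.5 and 73.0 CPM in Bach2KO. Every Bach2KO library lay below every Bach2WT library. Its log2 fold change was -0.55 ± 0.16 (unadjusted p = 0.00393, adjusted p = 0.513 in edgeR). At a mean of 26.2 FPKM in Bach2WT it was expressed above all 43 members, including its substrate Bckdha. Mcee, the methylmalonyl-CoA epimerase downstream of propionyl-CoA carboxylase, had a log2 fold change of -0.46 ± 0.18 (unadjusted p = 0.0279).

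Of 21 other citrate cycle and anaplerotic genes tested, 1 was lower and none higher, against 3.56% and 3.90% of all genes. This was Slc25a1, the mitochondrial citrate carrier, at -0.52 ± 0.19 (unadjusted p = 0.0149). Of 12 genes of fatty acid uptake, activation and the carnitine shuttle, 1 was lower, Acsl6, an acyl-CoA synthetase present at under 1 CPM in every library (unadjusted p = 0.0461). In the lists of other mitochondrial beta-oxidation (13 genes tested), peroxisomal beta-oxidation (11) and regulators of mitochondrial biogenesis (13), no gene had an unadjusted p under 0.05. With library sizes alone, the log2 fold changes of Bckdk, Oxct1, Slc25a1, Mcee and Acsl6 stayed below 0, at -0.24, -0.31, -0.21, -0.13 and -1.47, none with an unadjusted p under 0.05.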

How the data were processed

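RNA was isolated from homogenized pancreas, and poly(A)-selected libraries were sequenced as paired-end reads. The submitters' processing notes name fastp, HISAT2 2.2.1, featureCounts 2.0.6 and the mm39 build. Whether the libraries kept strand is not stated, so reads of the 18 members that overlap another listed gene may be shared. For 4 of them, Idh3b, Acadvl, Echs1 and Pcca, the other gene had over 10% of the member's counts. The authors deposited raw counts per gene and library without normalization, and FPKM values, in which counts were divided by a size factor per library and by gene length. Columns of the authors' own fold changes and p-values were not used.

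Counts were fitted with edgeR 4.0.16 (quasi-likelihood test, TMM, filterByExpr on genotype, R 4.3.3) on all genes, with Benjamini-Hochberg adjustment over the 12820 genes tested and a threshold of 0.05. Sex was tested with genotype as a covariate, and the interaction in a fit with both. DESeq2 1.42.0 was an alternative. CPM values are relative to TMM-scaled library sizes, and mean log2 CPM a prior count of 2. The 14 ratios were compared with exact permutation tests. The code was tested on simulated data. Replicates were separate mice. The members and lists were chosen with earlier results of these data known. Named are, per branch, the 2 members with the smallest p and those with the highest and lowest level, all members whose genotypes do not overlap, the pairs, and up to 3 other genes a list at an unadjusted p under 0.05, of which 1 is not reported here. Genes named for the comparison of the sexes were chosen after their values were seen. Promoter windows came from RefSeq (GRCm38.p6), matched by symbol, and were not mixed with coordinates of the table. The alternatives are given in the closing section. Each member had 47 or more counts in every library. Counting noise and the spread between mice were not separated.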

Additional observations from a re-analysis of the deposited data

Results flagged for a closer look

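The levels of each member and the branch means were searched for libraries that stood far from the other 3 of their group, and 7 of 96 groups held one by Dixon's criterion, which chance gives in about 1 of 20 groups. The value in parentheses is the gap to the nearest library divided by the range of the group.

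In Bach2WT, replicate 1 was low in Pcx at 15.2 CPM, against 17.7 to 18.1 in the others (0.884), and high in Acadl at 5.28 CPM, against 1.53 to 1.95 (0.887). Replicate 2 was high in Mdh2 at 28.9 CPM, against 21.8 to 22.9 (0.843). Replicate 3 was high in Bckdhb, the E1 beta subunit of the branched-chain ketoacid dehydrogenase, at 8.62 CPM, against 5.04 to 5.30 (0.928), and in the mean log2 CPM of branched-chain oxidation at 2.96, against 2.73 to 2.75 (0.883).

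In Bach2KO, replicate 1 was high in Dld, the E3 component shared by the 2-oxoacid dehydrogenase complexes, at 4.05 CPM, against 2.02 to 2.27 (0.877). Replicate 3, which stood apart on the first principal component, was low in the mean log2 CPM of all 43 genes at 2.31, against 2.60 to 2.65 (0.869).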

How the results depend on the processing

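The genotype comparison was repeated under 18 alternatives. The fits with a GC content correction and with library sizes alone, and all alternatives of the comparison of the sexes but DESeq2, were chosen after seeing the data. In none did a member pass the adjusted threshold. The count of members lower in Bach2KO at an unadjusted p under 0.05, 4 as reported, was 2 without a filter on low counts, 0 with library sizes alone and 1 to 3 in fits without 1 library, lowest without Bach2WT replicate 3 and 2 without Bach2KO replicate 1, Bach2KO replicate 3 or Bach2WT replicate 2. The count of higher members, 1 as reported, was 6 with library sizes alone and 1 to 3 without 1 library. With library sizes alone, 1595 of all 12820 genes were higher at that p and 47 lower. Without 1 library, 386 to 757 of all genes were higher and 273 to 632 lower. Median log2 fold changes turned above 0 with library sizes alone, at 0.19 for pyruvate entry, 0.15 for the citrate cycle, 0.22 for branched-chain oxidation and 0.23 for all members, and fatty acid oxidation moved to 0.26. The median of fatty acid oxidation, 0.02 as reported, was -0.0084 with RLE size factors, -0.012 with DESeq2, -0.057 with a gene length correction, -0.045 with the GC content correction and -0.15 to 0.16 without 1 library. With the gene length correction, 58.4% of the genes at an unadjusted p under 0.05 were lower in Bach2KO, against 47.8% as reported and 2.86% with library sizes alone. Over all genes, 1 passed the adjusted threshold as reported, 58 with DESeq2 and 73 without a filter. The cause of these shifts was not tested.

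The replicate numbers did not pair the samples: the deviations of same-numbered libraries correlated at 0.21, -0.034, -0.041 and -0.054. With a replicate block, 2 members were lower and 1 higher at an unadjusted p under 0.05, against 489 and 483 of 12820 genes. With that block, 0 ratios passed a paired sign-flip test, which cannot go below 0.125 with 4 pairs. Without 1 library, 0 to 2 ratios reached the smallest exact permutation p of that design, 0.0286: Dlat to Pdha1 without Bach2KO replicate 3, Acadl to Acadm and Pccb to Pcca without Bach2KO replicate 4, and Bckdhb to Bckdha without Bach2WT replicate 3. The 5 members lower in males became 3 to 6 without 1 library. In these fits 267 to 644 of all genes were lower in males at an unadjusted p under 0.05.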
